A study of Homo sapiens with 21 samples.

Results

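Coumarin at 10 µM was compared with the pooled lower doses of 0.001, 0.01, 0.1 and 1 µM to ask which genes first moved at 10 µM when the untreated cultures were not the reference. Libraries were grouped by dose label alone, while CHAC1, STC2, ADM2 and ELF3 were given with the comparison and not found by it. The comparison held 3 libraries at 10 µM and 12 at the lower doses, 3 at each of 4 doses. These are 15 of the 21 libraries in the series. The other 6 libraries, 3 untreated (0 µM) and 3 at 100 µM, gave a separate contrast that shares no library with the first. The cells were labelled HepG2, an established human line derived from a liver tumour. In every group, untreated included, serum-containing medium was removed and the cells were kept for 6 h in serum-free DMEM, the medium in which coumarin, a plant-derived fragrance compound, had been dissolved. RNA was selected with poly(dT) beads, and the series calls the 3 samples of a dose biological replicates.

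Cells that run short of amino acids or heme, or that carry misfolded proteins or mitochondrial faults, activate kinases that phosphorylate the translation factor eIF2alpha. General protein synthesis then slows while the transcription factor ATF4 is made in greater amount, and ATF4 with its partners of the C/EBP family switches on genes for amino acid supply, transfer RNA charging, redox balance and secreted stress hormones. This programme is called the integrated stress response. CHAC1, STC2 and ADM2 are among the genes it is known to induce, while ELF3 encodes an ETS-family transcription factor of epithelial cells.

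Total gene counts were 29584787 to 37476080 per library at 10 µM and 29753494 to 43704155 at the lower doses, so 3 counts corresponded to 0.0686 to 0.101 CPM (counts of a gene scaled to a common library total), counting error only. The table listed 58735 genes, and the filter on low counts kept 16196 for the tests. Transcripts of the mitochondrial genome took 5.67% to 6.25% of counts at 10 µM and 5.61% to 6.63% at the lower doses. The hepatocyte markers of HepG2 were mostly missing in these 15 libraries: 6 of 24, SERPINA1 among them, had no read, and only FOXA1 and CPS1 reached 1 CPM. The summed level of that list was 2764 to 2920 CPM at 10 µM and 2686 to 3112 at the lower doses, nearly all of it CPS1. Of 14 mesenchymal genes, 8 reached 1 CPM (summed level 1721 to 1755 against 1653 to 1830), as did 5 of 11 biliary and simple epithelial genes (4277 to 4394 against 4361 to 4862) although KRT19 and EPCAM were at 0. ALB, whose product serum albumin marks hepatocytes, was thus at 0 in cells labelled HepG2, and whether the label holds for these libraries was not tested. None of 12 endothelial and leukocyte genes reached 1 CPM (summed level 1.25 to 1.49 against 1.21 to 1.79). In bulk libraries fewer cells of a type and less RNA per cell cannot be told apart.

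Libraries numbered replicate 3 stood apart at several doses. Replicate 3 at 1 µM and replicate 3 at 10 µM were high in genes of glycolysis and the hypoxia response and in several stress hormones. The median deviation of the 26 hypoxia-type genes from the mean of the lower-dose libraries was 0.14 on the log2 scale in replicate 3 at 1 µM, whereas the other lower-dose libraries lay between -0.05 and 0.05. At 10 µM it was 0.08, 0.04 and 0.19. At 100 µM replicate 3 was also the highest, with 0.05 against -0.05 and -0.07. For the 25 called genes below whose mean log2 CPM was 1 or more, the adjusted p without replicate 3 at 10 µM is given where it misses the threshold. Replicate 1 at 10 µM also had the steepest dependence on gene length of all 21 libraries, with a slope of 0.026 log2 units per doubling of length against -0.012 to 0.009 at the lower doses.

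Against the pooled lower doses, 26 of the 16196 genes tested differed at 10 µM by edgeR's quasi-likelihood test with Benjamini-Hochberg adjustment, which is 0.161%, with 13 higher (0.0803%) and 13 lower (0.0803%). The changes were small: the absolute log2 fold change had a median of 0.28 among the 26. At an unadjusted p under 0.05, 1429 genes (8.82%) differed, 635 higher (3.92%) and 794 lower (4.9%), where 809.8 would be reached by chance alone under independent, uniform p-values. All 3 libraries at 10 µM lay beyond all 12 lower-dose libraries for 19 of the 26, 8 above and 11 below. Over all genes tested 1.07% did so, 0.451% above and 0.624% below. The 26 were called on the same libraries, so their separation adds no support to the call. The call count depended on single libraries: it was 8 without replicate 1 at 10 µM, 6 without replicate 3 at 10 µM, 60 without replicate 3 at 1 µM, 44 without replicate 1 at 0.1 µM and 17 without replicate 2 at 0.001 µM. With an offset for gene length the count was 38, with 24 of the 26 among them. CHAC1, STC2, TM4SF1, ELF3 and DHRS3 passed the test in all 15 fits that left out 1 library. Each of the other 20 called genes described below lost its call in at least 1 such fit: of 25 genes, 19 lost it without replicate 1 at 10 µM, 9 without replicate 2 and 20 without replicate 3.

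**Figure D1:**
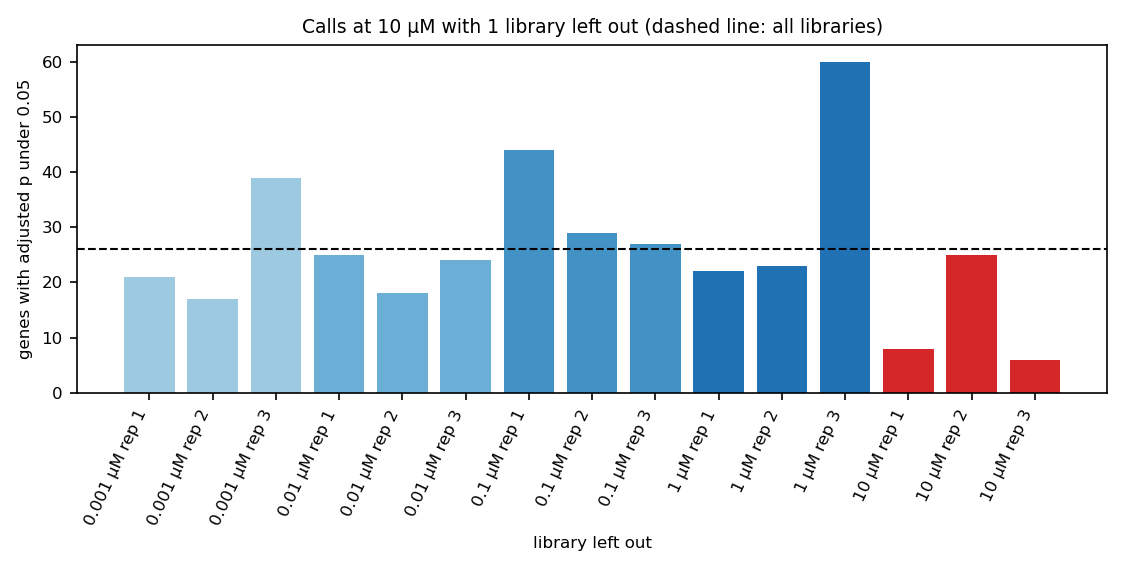
Number of genes with an adjusted p under 0.05 at 10 µM against the pooled lower doses (vertical axis) when the library named on the horizontal axis is left out, with the dashed line at the 26 calls of all libraries. The bars for replicates 1 and 3 at 10 µM stand at 8 and 6, and the bar for replicate 3 at 1 µM stands at 60.

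The integrated stress response was represented first by CHAC1, whose product breaks down glutathione. Because ATF4 acts through a composite site that joins a C/EBP and an ATF motif, the promoters were searched for the letters TGATGNAA, or TTNCATCA on the other strand, in the RefSeq promoters of GRCh38.p14, each running from 250 bases before to 50 bases after the gene start. Of 26 genes called, 19 had a promoter in the table and 1, CHAC1, held the motif (5.26%). Among 91 genes of 7 stress response lists, described below, 58 had a promoter and 14 held it (24.1%). It was held by 277 of 10399 genes tested (2.66%) and 1270 of 35116 promoters in the table (3.62%). The 7 lists were chosen around this response with earlier results of these data known. Their share therefore does not bear on the genes called at 10 µM. The stretches around the motif are printed for CHAC1, the called gene that holds it, and for 5 members of the regulator, synthesis and transporter lists, written along the gene's strand with the motif in capitals.
CHAC1: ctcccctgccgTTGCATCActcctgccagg
CEBPG: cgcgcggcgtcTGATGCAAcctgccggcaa
ATF3: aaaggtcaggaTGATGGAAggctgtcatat
ASNS: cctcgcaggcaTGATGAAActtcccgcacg
SLC1A4: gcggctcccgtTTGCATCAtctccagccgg
SLC1A5: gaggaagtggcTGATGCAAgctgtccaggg
These lie at chr15:40953251-40953280 (plus strand), chr19:33374060-33374089 (plus), chr1:212565205-212565234 (plus), chr7:97872458-97872487 (minus), chr2:64989381-64989410 (plus) and chr19:46784893-46784922 (minus), in that order. In CHAC1 the motif began at position -209 from the RefSeq start and read on the opposite strand, as in SLC1A4. RefSeq starts differ from those of the deposited table: for CHAC1, CEBPG, ASNS, SLC1A4 and SLC1A5 the stretch lies inside the gene's interval there, and for ATF3 before it. None of the 5 printed list members passed the test at 10 µM, and all 5 were called higher at 100 µM against untreated cells. SLC7A1, JDP2, SLC3A2 and FGF21 also held the motif and were called higher there. BCAT1, SLC38A1, MTHFD1L and GOT1 held it too and were not called at either dose (-0.09, -0.09, -0.03 and 0.07 at 100 µM). A match is a description of the letters and not of binding.

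CHAC1 (chr15:40952962-40956519, GRCh38) stood at 6.22, 6.44 and 5.89 CPM at 10 µM, while the 12 lower-dose libraries ran from 3.22 through a median of 3.78 to 4.30. The groups did not overlap, and every library at 10 µM was also above the untreated libraries at 3.29 to 3.83. The mean was 6.18 ± 0.28 (SD, n = 3) against 3.77 ± 0.36 (n = 12), and the difference on the log2 scale was 0.71 ± 0.08 (SE, with an adjusted p of 7.6e-06). The gene passed the test against each of the 4 lower doses taken alone, and against 1 µM its log2 fold change was 0.65 (adjusted p = 0.0099). From the lowest to the highest of these 4 doses the means were 3.88, 3.79, 3.45 and 3.95 CPM. At 100 µM it reached 26.3 CPM. Of the 14 genes of glutathione synthesis and breakdown 1, CHAC1, passed the test, and the list median was 0.02. Its paralogue CHAC2, which also degrades glutathione, stood at 39.8 ± 1.0 against 41.6 ± 2.0 CPM (adjusted p = 0.70).

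STC2, which encodes the secreted glycoprotein stanniocalcin-2 (chr5:173314713-173329503), measured 56.8, 60.0 and 67.1 CPM at 10 µM and 45.3, 48.6 and 56.5 as the lowest, median and highest of the lower doses. The groups did not overlap, but the margin was narrow: replicate 3 at 1 µM, the highest lower-dose library, fell just under replicate 1 at 10 µM, and without it the lower doses ended at 50.4. The log2 fold change was 0.33 ± 0.04 (adjusted p = 5.6e-05), or 0.26 (adjusted p = 0.013) without replicate 3 at 10 µM. Against 1 µM alone it was 0.23 and missed the threshold, while it passed against each of the other 3 doses. The untreated libraries stood at 43.5 to 44.7 CPM, below every lower-dose library. Against untreated cells the log2 fold change of STC2 at 10 µM was 0.47 (adjusted p = 3.6e-05). ADM2, the gene of the peptide hormone adrenomedullin-2, measured 4.17, 3.82 and 4.78 CPM at 10 µM against 2.47, 3.17 and 4.50. Here the groups overlapped, since replicate 3 at 1 µM exceeded 2 of the 3 libraries at 10 µM, and the other 11 lower-dose libraries reached 3.57 at most. ADM2 did not pass the test (log2 fold change 0.40 ± 0.10, adjusted p = 0.12), and it passed without replicate 3 at 1 µM (0.44, adjusted p = 0.040). With both replicate 3 libraries left out its adjusted p was 0.44.

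All 8 stress-induced secreted hormone genes tested had a positive log2 fold change, as had 8338 of all 16196 genes tested. Their median was 0.24 beside 0.0027 over all genes. Only STC2 of the 8 passed the test, and 5 had an unadjusted p under 0.05. Over all genes 3.92% were higher and 4.9% lower at that level, to be set beside each list count below. The lists were chosen with earlier results of these data known. The median per library separated the doses incompletely: it was 0.03, 0.28 and 0.35 at 10 µM, 0.31 in replicate 3 at 1 µM and at most 0.03 in the other lower-dose libraries. VEGFA, the angiogenic growth factor, stood at 113 ± 14 CPM against 101 ± 10 (adjusted p = 0.33). ANGPTL4, an inhibitor of lipoprotein lipase, measured 0.440, 0.818 and 1.57 CPM at 10 µM and 1.35 in replicate 3 at 1 µM, against 0.152 to 0.732 in the other lower-dose libraries (adjusted p = 0.33). Without replicate 3 at 1 µM, 3 of the 8 passed, STC2, ADM2 and ANGPTL4, in a fit that called 35 genes higher of 16517. With both replicate 3 libraries left out 1 of the 8 passed, and ANGPTL4 had an adjusted p of 0.64 with a log2 fold change of 0.80 in place of 1.42. The hypoxia-type genes were high in the same replicate 3 libraries, and their part in the hormone values was not tested.

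Upstream, no change was called in the mRNAs of the pathway's kinases, phosphatase subunits and sensors. None of 11 tested passed, none had an unadjusted p under 0.05, and the median was -0.01. Phosphorylation of eIF2alpha was not measured. The 11 transcription regulators of the response were all positive (8338 of 16196 over all genes tested), with a median of 0.13 and a range of 0.05 to 0.27. None passed the test. At an unadjusted p under 0.05, 7 were higher, beside 3.92% of all genes. Their median per library was 0.11, 0.18 and 0.14 at 10 µM against -0.03 to 0.07 over the 12 lower-dose libraries, with no overlap. In the fit with both replicate 3 libraries left out, the median log2 fold change of the 11 was 0.11. CEBPG, a C/EBP family partner of ATF4, measured 36.8, 37.3 and 36.5 CPM at 10 µM against a lowest of 30.8, a median of 33.1 and a highest of 36.3. These groups did not overlap, and the log2 fold change of 0.15 ± 0.04 missed the threshold (adjusted p = 0.086). KLF4, a zinc finger factor, stood at 8.28 ± 0.34 against 6.87 ± 0.52 CPM (adjusted p = 0.12). TRIB3, a pseudokinase induced by the response, stood at 86.5 ± 4.5 against 79.1 ± 3.5 (adjusted p = 0.27). NFIL3, a bZIP repressor, gave 8.78 ± 0.33 against 7.61 ± 0.71 (adjusted p = 0.29). ATF4 mRNA itself, named after its values were seen, was 414 ± 3.5 against 392 ± 16 CPM (adjusted p = 0.46), and its groups overlapped.

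Among downstream metabolic genes, 1 of 20 genes of amino acid and one-carbon synthesis rose, and the median was 0.06. At an unadjusted p under 0.05, 8 were higher, beside 3.92% of all genes tested, and 0 lower. The 1 that rose was GPT2, the mitochondrial alanine aminotransferase. It measured 51.2, 50.6 and 54.3 CPM at 10 µM against 42.3, 44.3 and 48.4, without overlap (log2 fold change 0.21 ± 0.04, adjusted p = 0.011). Its adjusted p was 0.055 without replicate 1 and 0.27 without replicate 3 at 10 µM. PSPH, the last enzyme of serine synthesis, was also beyond all lower-dose libraries at 86.1, 83.8 and 85.4 CPM against 70.4 to 79.9 (0.15 ± 0.03, adjusted p = 0.052). MTHFD2 and PSAT1, enzymes of mitochondrial one-carbon metabolism and of serine synthesis, had log2 fold changes of 0.11 and 0.09 and adjusted p-values of 0.13 and 0.18, again with no overlap. None of 20 cytosolic aminoacyl-tRNA synthetase genes passed (3 higher at an unadjusted p under 0.05, median 0.03), nor did any of 13 amino acid transporter genes (4 higher and 1 lower, median 0.04). CARS, for cysteinyl-tRNA, had 0.11 (adjusted p = 0.29) and SLC1A4, a neutral amino acid carrier, 0.13 (adjusted p = 0.23).

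Genes that restrain the growth kinase complex mTORC1 gave a median of 0.15 over 5 members, of which none passed and 3 had an unadjusted p under 0.05. SESN2, a sestrin that senses leucine, measured 13.4, 16.8 and 15.3 CPM at 10 µM against 11.7 to 14.7 (0.25 ± 0.06, adjusted p = 0.098). DDIT4, also known as REDD1, gave 159, 167 and 180 CPM against 140 to 187, with replicate 3 at 1 µM as the highest and 156 as the highest of the rest (adjusted p = 0.36). Without that library both passed, SESN2 with 0.26 (adjusted p = 0.049) and DDIT4 with 0.18 (adjusted p = 0.044). With both replicate 3 libraries left out neither did (adjusted p = 0.32 and 0.51), nor without replicate 3 at 10 µM alone (0.45 and 0.80). Chaperone and degradation genes of the ATF6 and IRE1 branches of the endoplasmic reticulum stress response had a median of 0.03, and 0 of 19 passed (1 with an unadjusted p under 0.05).

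**Figure D2:**
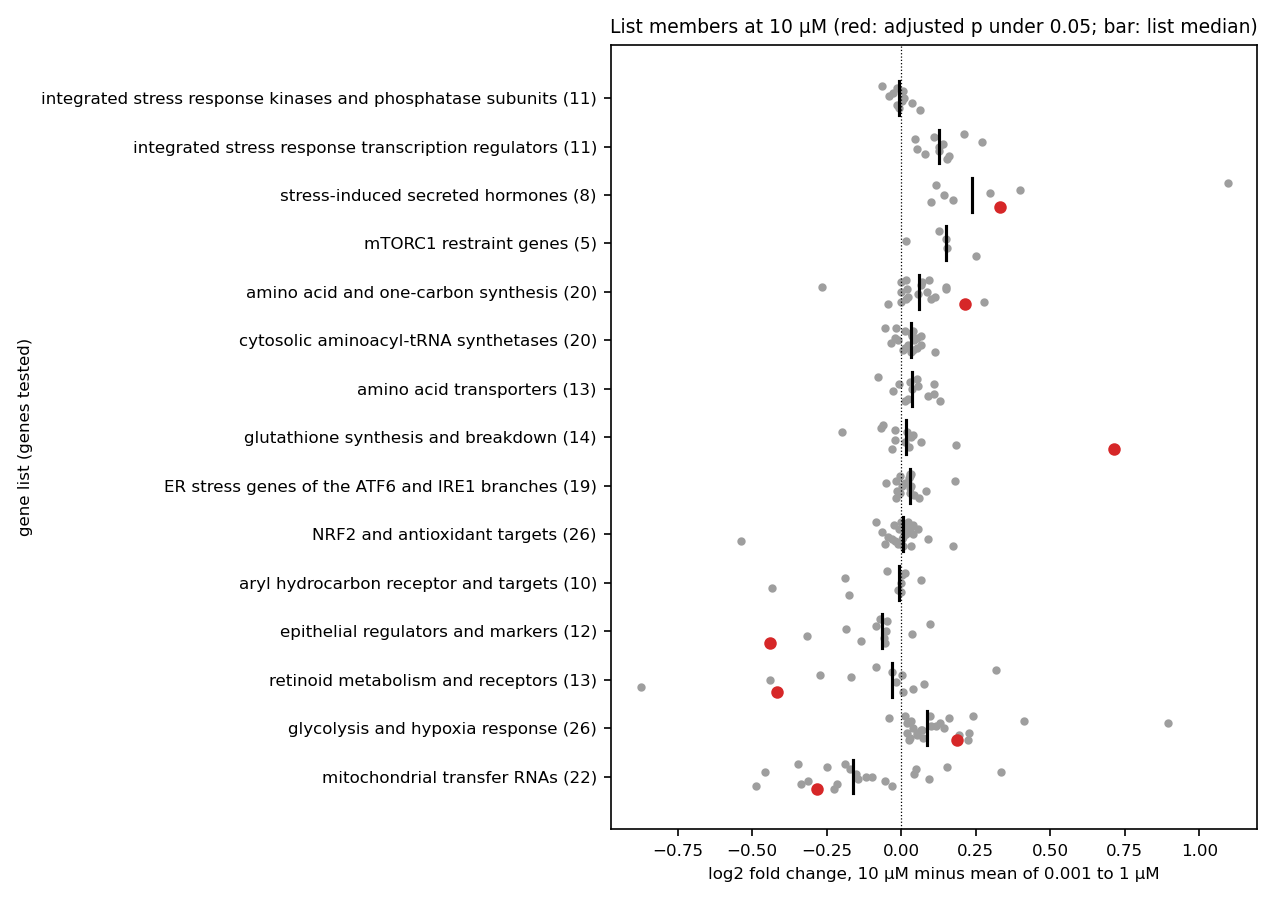
Log2 fold change at 10 µM minus the mean of the 4 lower dose groups (horizontal axis) for each tested member of 15 gene lists (vertical axis, number tested in parentheses), with red points for an adjusted p under 0.05 and a black bar at the list median. All 11 integrated stress response regulators and all 8 secreted hormones lie to the right of 0, and the kinases and phosphatase subunits centre on -0.01.

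ELF3 (chr1:202007945-202017188) fell. It measured 18.4, 19.6 and 20.2 CPM at 10 µM, against a lowest of 22.5, a median of 26.3 and a highest of 28.4 at the lower doses, so the groups did not overlap. The mean was 19.4 ± 0.91 (n = 3) against 26.4 ± 1.7 (n = 12), and the difference on the log2 scale was -0.44 ± 0.05 (SE, adjusted p = 4.1e-05). Like CHAC1, it passed against each lower dose alone, with -0.38 against 1 µM (adjusted p = 0.041). The antisense gene ELF3-AS1 overlaps it, with 2351 counts over the 21 libraries beside 17226 for ELF3, and without stated use of strand their reads cannot be told apart. Of 12 epithelial regulators and markers ELF3 was the 1 that changed, 4 had an unadjusted p under 0.05, all lower, and the median was -0.06. KLF5, a zinc finger factor of epithelia, stood at 82.6 ± 1.1 against 87.6 ± 2.8 CPM (adjusted p = 0.38), and the keratin gene KRT18 at 879 ± 15 against 924 ± 32 (adjusted p = 0.46).

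DHRS3 (chr1:12567910-12617731), whose product reduces retinaldehyde to retinol, also fell. It gave 31.2, 34.2 and 34.1 CPM at 10 µM against 39.7, 44.5 and 47.5, with no overlap (-0.42 ± 0.05, adjusted p = 4.1e-05). It passed against 0.001, 0.01 and 0.1 µM taken singly and not against 1 µM. Of 13 retinoid genes DHRS3 was the 1 that changed and the median was -0.03. STRA6, the receptor that takes up retinol, stood at 13.8 ± 1.1 against 16.7 ± 1.5 CPM (adjusted p = 0.18), and RDH10, which oxidises retinol, lay above all lower-dose libraries at 540 ± 7.3 against 512 ± 14 (adjusted p = 0.28). GPRC5A, an orphan receptor first described as induced by retinoic acid, fell to 153, 157 and 163 CPM from 163, 175 and 191 (-0.16 ± 0.03, adjusted p = 0.017). Its groups touched, with replicate 3 at 10 µM just above the lowest library, replicate 3 at 1 µM, and without replicate 3 at 10 µM its adjusted p was 0.056.

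**Figure D3:**
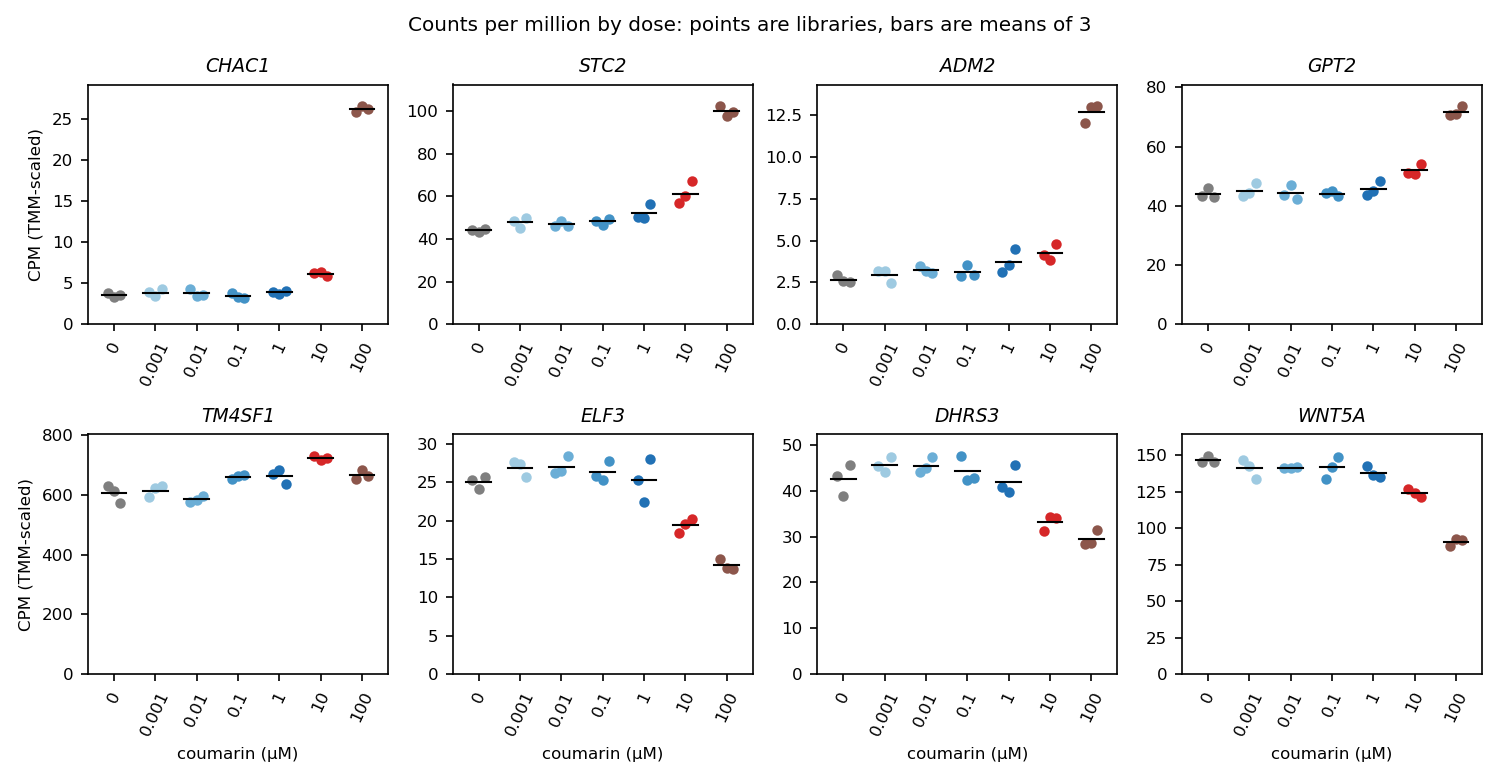
TMM-scaled CPM (vertical axes, starting at 0) of 8 genes by coumarin dose (horizontal axes, in µM), with a point per library and a black bar at the mean of 3. CHAC1 at 10 µM stands at 5.89 to 6.44 CPM above all lower-dose libraries, ELF3 and DHRS3 at 10 µM lie below all of them, and ADM2 overlaps through 1 library at 1 µM.

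WNT5A, a ligand of noncanonical Wnt signalling (chr3:55465715-55490539), measured 127, 124 and 122 CPM at 10 µM against 134, 142 and 149, and fell without overlap (-0.18 ± 0.03, adjusted p = 0.011). Leaving out any 1 of the 3 libraries at 10 µM raised its adjusted p to between 0.055 and 0.22, the latter without replicate 3. The Wnt inhibitor gene DKK1 (chr10:52314296-52318042) rose, to 13.3, 12.2 and 13.6 CPM from 9.05, 10.8 and 11.5, again without overlap (0.31 ± 0.06, adjusted p = 0.011), and its adjusted p was 0.24 without replicate 3 at 10 µM. At 100 µM DKK1 stood at 10.2 CPM, as it did in untreated cells. No receptor or partner in the list of 12 genes around WNT5A passed (1 higher at an unadjusted p under 0.05).

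TNFSF15, which encodes the cytokine TL1A, fell, with 5.28, 4.53 and 4.38 CPM at 10 µM against 5.46, 6.47 and 7.51 (-0.45 ± 0.09, adjusted p = 0.031). NFKBIZ, an atypical IκB protein that acts on NF-κB in the nucleus, gave 4.58, 5.59 and 4.51 against 5.84, 6.54 and 7.16 (-0.41 ± 0.09, adjusted p = 0.035). VSIR, the immune checkpoint protein VISTA, gave 15.3, 15.0 and 13.4 against 17.1, 18.5 and 21.2 (-0.36 ± 0.06, adjusted p = 0.0039). In all 3 genes the libraries at 10 µM lay below every lower-dose library. Their adjusted p-values were 0.36, 0.39 and 0.19, in that order, without replicate 3 at 10 µM.

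TM4SF1, a surface protein that crosses the membrane several times, rose. It stood at 730, 717 and 724 CPM at 10 µM and between 575 and 683 at the lower doses, with no overlap (0.20 ± 0.03, adjusted p = 0.00040). Its lower-dose means were not level, at 615, 585, 662 and 664 CPM from 0.001 to 1 µM, and the untreated mean was 606. Against 1 µM alone the log2 fold change of TM4SF1 was 0.12 and missed the threshold. Its mean at 100 µM was 667 CPM. FOXO3, a forkhead factor of starvation and stress, measured 27.2, 26.8 and 29.1 CPM against 21.4, 23.9 and 26.2 (0.20 ± 0.04, adjusted p = 0.031), and reads shared with its near-identical copy FOXO3B could not be separated here. GNG5, a G protein gamma subunit, gave 18.1, 17.4 and 16.9 against 13.3, 14.6 and 16.2 (0.26 ± 0.05, adjusted p = 0.034). Neither overlapped its lower-dose libraries, and both missed the threshold without replicate 3 at 10 µM (adjusted p = 0.40 for FOXO3 and 0.17 for GNG5).

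The remaining calls were smaller or less certain in identity. SLC12A3, the thiazide-sensitive sodium chloride cotransporter, SYNPO, an actin-binding protein, and OLFML1, an olfactomedin-like secreted protein, fell with log2 fold changes of -0.23, -0.20 and -0.16 (adjusted p = 0.011, 0.034 and 0.034), all without overlap. These adjusted p-values were 0.10, 0.31 and 0.40 without replicate 3 at 10 µM, and with an offset for gene length SYNPO missed the threshold (0.079). HIGD2A, a respiratory complex assembly factor, rose by 0.17 (adjusted p = 0.045), and the opposite-strand gene NOP16 overlaps it. STAMBPL1, a deubiquitinase gene that overlaps ACTA2, rose by 0.17 (adjusted p = 0.017). RNF207 fell (-0.35, adjusted p = 0.034) and overlaps the far more strongly counted ICMT and RPL22. KRT7-AS fell (-0.45, adjusted p = 0.011), and with 8523 counts beside 889000 for the keratin gene KRT7 on the other strand, its reads cannot be told from KRT7. AL135905.2, which overlaps PTP4A1 on the same strand, rose by 0.27 (adjusted p = 0.011). The processed pseudogene AC012085.1 rose by 0.37 (adjusted p = 0.015), with 28.0 CPM in replicate 3 at 1 µM above 26.0 to 27.7 at 10 µM. AC007325.4, an unplaced-scaffold gene below the level set for named genes and named after its values were seen, had the only change past 2-fold of the 26 (1.77, adjusted p = 0.034), at 1.91, 0.545 and 2.24 CPM against 0.161 to 1.86, with overlap. Without replicate 3 at 10 µM the adjusted p was 0.45 for HIGD2A, 0.073 for STAMBPL1, 0.31 for RNF207, 0.19 for KRT7-AS, 0.29 for AL135905.2 and 0.22 for AC012085.1.

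The hypoxia-type genes were positive in 25 of 26 (8338 of 16196 over all genes tested), with a median of 0.09. At an unadjusted p under 0.05, 13 were higher, beside 3.92% of all genes. Of the 26, 1 passed the test, the glucose-phosphorylating enzyme gene HK2. HK2 measured 93.4, 93.3 and 104 CPM at 10 µM, and 95.5 in replicate 3 at 1 µM beside at most 89.5 in the other lower-dose libraries (0.19 ± 0.04, adjusted p = 0.037). Without replicate 3 at 10 µM its adjusted p was 0.52, the list had 1 member with an unadjusted p under 0.05, and its median was 0.05. CA9, the carbonic anhydrase induced by HIF, stood at 5.17, 4.91 and 11.9 CPM at 10 µM and at 11.1 in replicate 3 at 1 µM, against 2.75 to 4.45 elsewhere among the lower doses (adjusted p = 0.21). Without replicate 3 at 1 µM, CA9 and BNIP3, a mitophagy receptor, also passed with log2 fold changes of 1.08 and 0.28 (adjusted p = 0.012 and 0.044). With both replicate 3 libraries left out none of the 26 passed, and 4 had an unadjusted p under 0.05. At 100 µM against untreated the median was 0.04 and no member was called.

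Mitochondrial transfer RNAs, which read amino acid codons inside the organelle, had a median of -0.16 over 22 members. MT-TN, for asparagine, was the 1 that fell (104, 96.6 and 110 CPM against 95.0, 130 and 140, -0.28 ± 0.05, adjusted p = 0.017) and 7 had an unadjusted p under 0.05, all lower. Its lowest lower-dose library, replicate 3 at 1 µM, lay below all 3 libraries at 10 µM. The fall of MT-TN missed the threshold with an offset for gene length (-0.17, adjusted p = 0.28), with edgeR's robust prior or the 12 libraries as 1 group (0.071 each), in limma on log2(FPKM + 1) (0.19), and without replicate 1, 2 or 3 at 10 µM (0.12, 0.15 and 0.053). At 1 µM against the 3 doses under it the list also had a negative median, -0.17, while CHAC1 stood at 0.09 in that comparison. A poly(dT) selection recovers such short RNAs incompletely. The 15 mitochondrial messenger and ribosomal RNAs had a median of -0.01.

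In the autophagy list 0 of 14 genes passed (4 higher and 1 lower at an unadjusted p under 0.05). GABARAP, an ATG8 protein that coats autophagosomes, measured 6.96, 7.39 and 8.67 CPM at 10 µM, with 8.59 in replicate 3 at 1 µM and at most 5.78 in the other 11 (0.45 ± 0.10, adjusted p = 0.052). Its untreated libraries stood at 4.27 to 4.93 CPM, below every lower-dose library (lowest 5.01). GABARAPL1, its close paralogue, went the other way at 130 ± 1.2 against 142 ± 4.8 CPM (-0.13 ± 0.03, adjusted p = 0.052), below all 12. Without replicate 3 at 1 µM both passed, GABARAP with 0.52 (adjusted p = 0.00015) and GABARAPL1 with -0.13 (adjusted p = 0.040). With both replicate 3 libraries left out GABARAP passed (0.42, adjusted p = 0.029) and GABARAPL1 did not (adjusted p = 0.29), and without replicate 3 at 10 µM alone neither did (0.52 and 0.39).

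Xenobiotic programmes were not called at 10 µM. The aryl hydrocarbon receptor is a transcription factor that flat aromatic molecules activate, and none of 10 genes in its list passed (2 lower at an unadjusted p under 0.05, median -0.01). AHRR, the receptor's repressor, stood at 149 ± 9.4 against 168 ± 6.8 CPM (adjusted p = 0.086), TNFAIP2 at 25.5 ± 1.2 against 29.1 ± 1.5 (adjusted p = 0.098), and CYP1A1, its classical target, at 0.489 ± 0.13 against 0.677 ± 0.17 (adjusted p = 0.68). Of 26 antioxidant genes under NRF2 none passed (1 with an unadjusted p under 0.05, median 0.01), nor did any of 18 p53 targets (2, median 0.02). Of 14 enzymes known to act on coumarin, 5 were expressed enough to be tested, none passed and none had an unadjusted p under 0.05. CYP2A6, the main human coumarin hydroxylase, had 7 reads in the 15 libraries. None of 79 cytosolic ribosomal protein genes passed, though 21 were higher and 3 lower at an unadjusted p under 0.05 (median 0.06), and none of 76 respiratory chain genes (15 higher, 1 lower, median 0.03), 18 clustered histone genes (3 higher, median 0.11), 23 cholesterol synthesis genes (1, median 0.01) or 16 ERK output genes (3 higher, 1 lower, median 0.03).

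Few genes differed between the doses below 10 µM by the same test. At 1 µM against the pooled 0.001, 0.01 and 0.1 µM groups, edgeR called 0 genes (0%), DESeq2 also 0, with 1081 genes (6.67%) at an unadjusted p under 0.05. Among the 4 lower doses 1 gene was called (0.00617%), the immediate early gene FOS (adjusted p = 1.1e-05), while 821 (5.07%) had an unadjusted p under 0.05. DESeq2 called 10 genes among these doses, and without a filter on low counts edgeR called 137 among them and 107 at 1 µM. FOS means ran 92.4, 45.3, 46.5 and 73.5 CPM from 0.001 to 1 µM, with 93.3 untreated and 67.6 at 10 µM, and these levels did not follow the order of the doses. None of the 26 genes called at 10 µM passed the test among the lower doses, and 8 of them had an unadjusted p under 0.05 there. The median SE of a log2 fold change was 0.060 against the pooled doses and 0.076 against the 3 untreated libraries, a comparison that called 53 genes (0.327%). Of the 26 genes, 17 were among these 53, and all 26 kept their sign. FOXO3, SYNPO, GPRC5A and AC007325.4 were among those that missed the threshold against untreated cells (adjusted p = 0.145, 0.198, 0.145 and 0.557).

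The contrast of 100 µM with untreated cells used none of the 15 libraries above, although the spread was estimated jointly. It called 1371 genes (8.47%), 593 higher (3.66%) and 778 lower (4.8%). Of the 26 genes called at 10 µM, 21 were called in the same direction there, 9 higher and 12 lower, which is 80.8% of the calls at 10 µM and 1.53% of those at 100 µM. The change was larger at 100 µM for 18 of the 21. CHAC1 changed by 2.88, STC2 by 1.18, GPT2 by 0.70, ELF3 by -0.83, TNFSF15 by -1.24 and WNT5A by -0.69 (adjusted p = 4.1e-19, 4.6e-15, 4.3e-11, 1.8e-09, 3.9e-08 and 1.7e-12), and ADM2, not called at 10 µM, by 2.24 (adjusted p = 2.8e-13). DHRS3 and TM4SF1 changed there by -0.53 and 0.14. The 5 genes not called at 100 µM were NFKBIZ, STAMBPL1, HK2, DKK1 and AC007325.4. Of the 11 regulators of the stress response, 10 were called higher at 100 µM (median 0.70), as were 6 of 8 secreted hormones (median 1.06), 10 of 20 amino acid and one-carbon genes and 8 of 20 transfer RNA synthetases. In the aryl hydrocarbon receptor list of 10 genes, 5 were called lower at 100 µM and 1 higher (median -0.22). Among 18 clustered histone genes, 10 were called higher and 0 lower (median 0.67). Over all genes these shares were 3.66% higher and 4.8% lower.

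**Figure D4:**
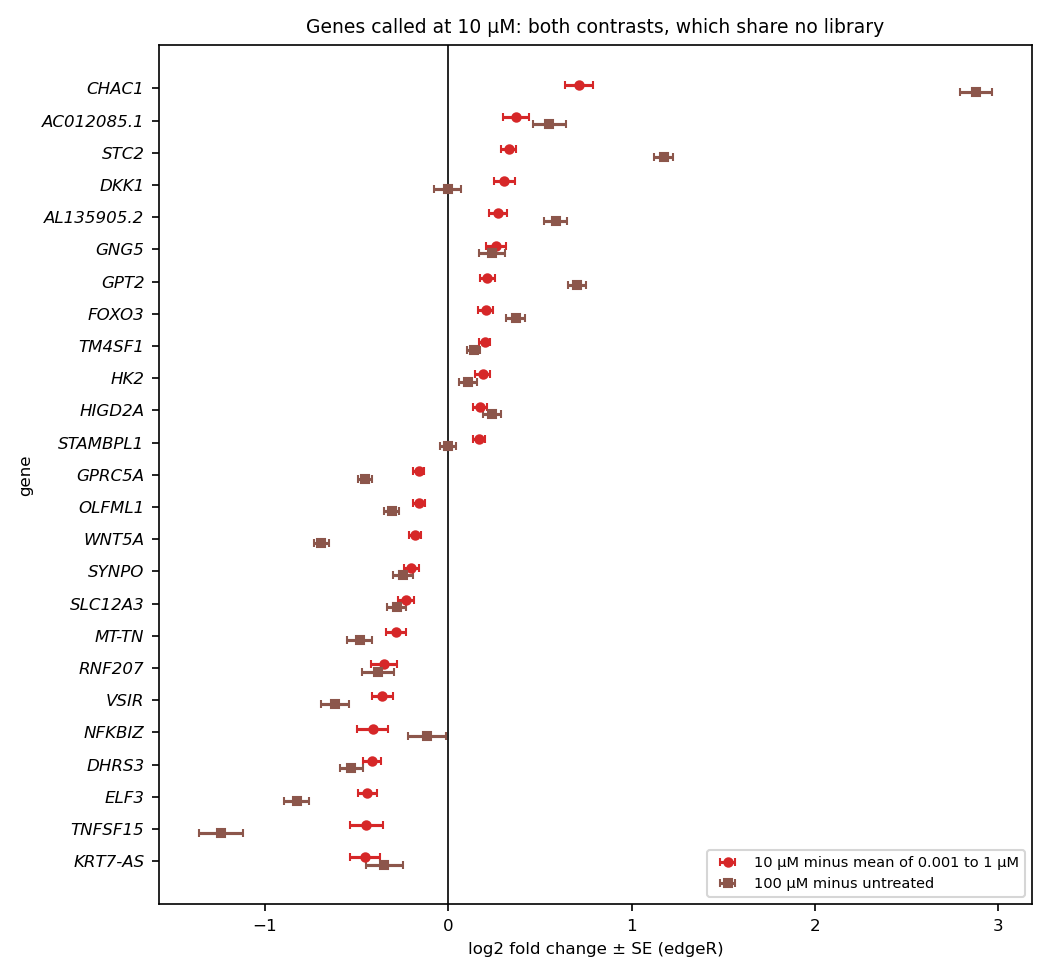
Log2 fold change with its SE (horizontal axis) for the 25 called genes whose mean log2 CPM was 1 or more (vertical axis), with red circles for 10 µM minus the lower doses and brown squares for 100 µM minus untreated. CHAC1 moves from 0.71 to 2.88 and ELF3 from -0.44 to -0.83, while DKK1 and STAMBPL1 sit at 0 in the second contrast.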

How the data were processed

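RNA of 21 cultures was sequenced, per the labels' protocols. The authors deposited gene counts, whole numbers per gene and library without normalization, and FPKM (fragments scaled by gene length and library size). The tools HISAT2 and DESeq2 and the build GRCh38 are listed, per the submitters' processing notes, which assign them no role. For the counting tool and its use of strand, the answer is not given in the sources used here.

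Counts were fitted with edgeR 4.0.16 in R 4.3.3: filterByExpr, TMM scaling and 1 quasi-likelihood model of 7 group means over all 21 libraries, with 14 residual degrees of freedom. The contrast was 10 µM minus the mean of the 4 lower group means. Benjamini-Hochberg adjustment covered the 16196 genes tested, at a threshold of 0.05. Levels are TMM-scaled CPM. Library medians of lists used log2(CPM + 0.25).

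The members and the 29 gene lists (604 entries, 586 different symbols matched and 1 not) were chosen with earlier results of these data known. Genes named were CHAC1, STC2, ADM2, ELF3, up to 15 called genes in each direction whose mean log2 CPM was 1 or more, and up to 4 members with the smallest p of each list described. Others are said to be named after their values were seen, or show a list, a library or an overlap.

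The test was first run on simulated counts for this contrast, in a single draw over 15898 genes. Of log2 changes of 0.2, 0.322, 0.585 and 1, each given to 50 genes, 62%, 88%, 98% and 100% were recovered. Every simulated gene had the same spread between replicates (a coefficient of variation of 0.0436 beyond counting error), and no library stood apart. The changed genes all had a mean log2 CPM above 1. Recovery with the uneven spread of the real libraries was not tested. Counts of the 21 replicate pairs differed beyond sampling noise, with a chi-square statistic of 2.74 to 12.8 times its degrees of freedom. P-values measure only the spread between these samples, which may be technical, beyond the series' own word that they are biological replicates. Alternatives were DESeq2 1.42.0, limma 3.58.1 on FPKM, other filters, references and offsets, and each library left out. Promoters are from RefSeq (GRCh38.p14). Figures were drawn with matplotlib 3.10.9.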

Additional observations from a re-analysis of the deposited data

How the results depend on the processing

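The count of 26 genes at 10 µM moved with the method: DESeq2 called 62, limma on log2(FPKM + 1) 8 and on log2(FPKM + 0.1) 11, and no filter on low counts gave 170, with 107 at 1 µM and 137 among the lower doses. A further requirement of 2-fold left 1, and left 62 of the 1371 genes at 100 µM. Among the lower doses DESeq2 called 10 genes, and edgeR's robust prior, an alternative chosen after seeing the data, called 0. With a single dose as reference, each of 3 libraries, the count differed between doses. It was 18 against 0.001 µM, 10 against 0.01 µM, 10 against 0.1 µM and 2 against 1 µM. It was 53 with the untreated libraries as reference, with 17 of the 26 among them. With the 12 lower-dose libraries fitted as 1 group, where dose differences enter the spread, it was 16. Leaving out both replicate 3 libraries at 1 and 10 µM, also chosen after seeing the data, gave 14. The causes of these moves were not tested. With 1 library left out the count ran from 6 to 60 at 10 µM, 0 to 0 at 1 µM, 1 to 2 among the lower doses and 681 to 1588 at 100 µM. CHAC1, ELF3, STC2, TM4SF1 and DHRS3 passed in these fits and in 12 other alternatives that changed the method, the filter, the scaling, the block or the libraries fitted.

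Over all genes tested, the 12 correlations between same-numbered libraries at 10 µM and the lower doses ran from -0.058 to 0.040. The 24 between differently numbered libraries ran from -0.069 to 0.072. A pairing limited to a set of genes, such as the hypoxia-type genes, was not tested. The replicate block gave 30 calls at 10 µM, all 26 among them, and 1318 at 100 µM. Named genes changed sign in 3 fits: CHAC2 was 0.0061 against 0.001 µM alone, DEPTOR -0.023 against 1 µM alone and ALDH3A1 0.16 against untreated. Depth limits genes near 0.1 CPM, where 3 counts are 0.0686 to 0.107 CPM.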
